A study of Mus musculus with 12 samples.

Results

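Forkhead genes encode transcription factors that share the forkhead, or winged helix, DNA-binding domain. The set described here was chosen by symbol (Fox, a letter from a to s and a number) among the protein-coding genes that RefSeq places on mouse autosomes, leaving out Foxa2 and Foxd3. It holds 39 of 20665 autosomal protein-coding genes. SOX2, one of the core factors of pluripotency, was pulled down with cross-linked chromatin and the bound DNA sequenced (ChIP-seq) in E14 cells, an established line of mouse embryonic stem (ES) cells. The 12 libraries were SOX2 ChIP and input DNA of asynchronously growing cells and of mitotic cells, with 3 replicates in each of the 4 groups. Both populations grew with leukemia inhibitory factor and 10% serum, plus 0.8 μM of PD184352, which blocks MEK, and 3 μM of CHIR99021, which blocks GSK3. The mitotic cells were also held overnight in nocodazole, a microtubule poison, then fixed and sorted for histone H3 phosphorylated at serine 10 (H3S10p), a mark of condensed chromosomes. The comparison addresses where SOX2 binds near forkhead genes in each population. Peaks carry no expression values, so the cell type was not checked against its markers.

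Replicates were pooled before regions were called, so there was 1 list per condition, with 10351 distinct regions in asynchronous cells and 84 in mitotic cells. The sequencing depth is unknown, the regions have no score, and no value below has a replicate error. Intervals cover counting error only. A region counted for a gene when its midpoint lay inside the gene span or within 50 kb of either end. Positions are on mm10.

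Some forkhead factors open closed chromatin and set up a lineage, as FOXA1 does in endoderm. Others are expressed in most cells and respond to growth factors, nutrients or the cell cycle. The FoxO factors leave the nucleus when AKT phosphorylates them, FOXM1 drives genes of the later cell cycle, and FOXH1 carries Nodal signals by binding SMAD proteins. SOX2 and forkhead factors both bind regulatory elements of stem cells and of early lineages.

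In asynchronous cells, 21 of the 39 forkhead genes had a SOX2 region within 50 kb (53.8%, exact 95% interval 37.2 to 69.9%), and 18 had none. The share among all autosomal protein-coding genes was 47.2%. Span length sets how much sequence is searched, so each forkhead gene was set beside the 100 other protein-coding genes nearest to it in span. These had a region in 46.0% of cases, which lies inside the interval of the forkhead share, so no difference between the family and genes of its lengths was detectable. The mean number of regions per gene was 1.28 in the family and 0.820 in genes of like length, while the median was 1 in the family and 0 over all genes. Regions numbered 49 in all: 1 was shared by Foxd2 and Foxe3. The genes Foxn3, Foxp1 and Foxp4 held 24 of the 49 regions.

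**Figure D1:**
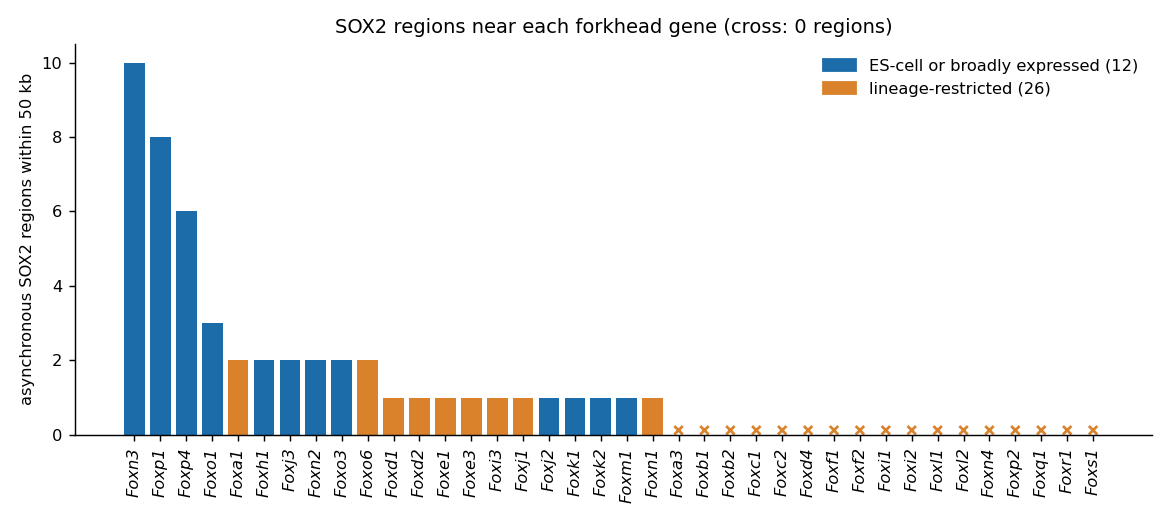
Number of asynchronous SOX2 regions within 50 kb (y axis) of each of 38 forkhead genes (x axis), coloured by expression class; crosses mark genes with 0 regions. Foxn3, Foxp1 and Foxp4 stand at 10, 8 and 6, no other gene is above 3, and every gene marked with a cross is lineage-restricted.

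The genes with a region included every one of the class called broadly expressed here. All 12 genes listed as expressed broadly, or like Foxh1 in the early embryo, had a region within 50 kb (100%). The share was 50% at a window of 10 kb, and 66.7% both when each region was given only to its nearest gene and with only regions wider than the median. The 12 were Foxh1, Foxj2, Foxj3, Foxk1, Foxk2, Foxm1, Foxn2, Foxn3, Foxo1, Foxo3, Foxp1 and Foxp4. Genes of their lengths had one within 50 kb in 57.6% of cases. Of the 27 genes listed as restricted to particular lineages, 9 had a region (33.3%), against 40.8% in genes of their lengths. These were Foxa1, Foxd1, Foxd2, Foxe1, Foxe3, Foxi3, Foxj1, Foxn1 and Foxo6. The split was made from textbook knowledge, since no expression was measured, and with earlier results of these data known. The shares of its classes are therefore a description, with no test, and support no difference between the classes or from genes of like length. The classes also differ in length, with median spans of 59.0 and 3.75 kb. Among genes over 10 kb, 11 of 11 broadly expressed ones had a region, against 59.2% of genes of their lengths. Of the restricted ones over 10 kb, 2 of 5 did (exact 95% interval 5.27 to 85.3%), against 50.2%. Of the restricted ones up to 10 kb, 7 of 22 did (31.8%), against 38.7%. Up to that length only Foxh1 was in the broadly expressed class, so the classes cannot be compared there.

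Among the tissue groups of 4 or more genes, the neural one had the lowest share with a region. Only Foxo6 of 7 neural genes had one (14.3%, exact 95% interval 0.361 to 57.9%), where genes of those lengths had one in 42.1% of cases. Of the 8 mesoderm and kidney genes, Foxd1 and Foxd2 had one (25%, against 38.9%), and of the 4 endoderm genes, Foxa1 and Foxe1 did (50%, against 42.8%). Of the 6 genes of ectoderm and epithelia, 4 had one (66.7%, against 42.3%). Neither of the 2 germline and gonad genes, Foxl2 and Foxr1, did. Each interval around these shares spans the value for genes of like length.

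**Figure D2:**
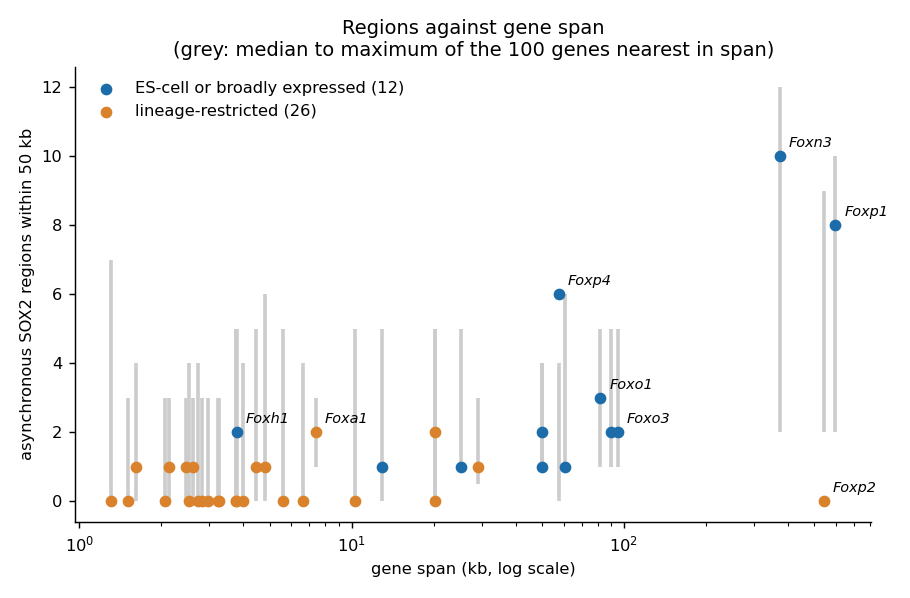
Asynchronous SOX2 regions within 50 kb (y axis) against gene span in kb (x axis, log scale) for 38 forkhead genes; grey lines run from the median to the maximum of the 100 protein-coding genes nearest in span. Foxp4, with 6 regions, lies above the maximum of 4 for genes of its length, and Foxp2 has 0 where the median is 2.

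Foxn3 had the most regions of the family. It encodes a repressor linked to cell cycle checkpoints and spans 374 kb (chromosome 12, 99190081 to 99563667). Of its 10 regions, 8 lay inside the gene, 1 lay 10.8 kb upstream of the span and 1 lay 27.8 kb beyond the other end. The listed start of the gene, at 99450074, lies inside the span, so the upstream region was 124 kb from that start. Of the 100 genes nearest in span, 1 had at least 10 regions, and their median was 2. The 8 inner regions lay between 40.4 and 89.2% of the way along the span, and none lay nearer than 37.3 kb to the listed start of the gene. The widest was 700 bp (99412398 to 99413097), wider than 98.7% of asynchronous regions by percentile rank, and was the only region near a forkhead gene with more than 1 listed summit. Regions of 675 bp (99299752 to 99300426) and 512 bp (99361079 to 99361590) were at percentiles 98.4 and 92.1. Others were as narrow as 199 bp (99344236 to 99344434). The smallest width in the list was 183 bp. The regions have no score, so how width relates to the strength of SOX2 binding was not tested.

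One region inside Foxn3, at 99340710 to 99340921, overlapped the promoter window of 3300002A11Rik, a long noncoding RNA gene that lies within the span of Foxn3. It is the only region near a forkhead gene of which sequence was at hand, from the RefSeq promoter table for GRCm38.p6, the assembly that mm10 names. The table gives the bases from 250 before to 50 after a start. The overlap is 141 bases long, on the plus strand, and is shown because it is bound sequence.
Foxn3 region, chr12:99340781-99340921: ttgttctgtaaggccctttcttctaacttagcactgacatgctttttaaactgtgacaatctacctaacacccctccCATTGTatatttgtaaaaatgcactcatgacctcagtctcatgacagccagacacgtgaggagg
The capitals mark CATTGT, a core that SOX factors recognise, searched on both strands (ACAATG on the other). It occurred once, starting at base 78. The motif was present in 6.05% of the first 141 bases of all 31396 autosomal promoter windows. A match is a description and does not show which bases SOX2 contacted.

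Foxp1 followed with 8 regions, all inside the gene. FOXP1 is known in ES cells for a splice form that favours pluripotency genes. The gene spans 597 kb (chromosome 6, 98925342 to 99522746, minus strand), and 6 of the 100 genes nearest in span had at least 8 regions, with a median of 2. The regions lay from 15.2 to 493 kb along the gene. Their widths were 185 to 406 bp with a median of 210 bp, against a median of 289 bp over all autosomal regions. The widest lay at 99240759 to 99241164. A pair lay close to a start in the middle of the gene: 99264214 to 99264411 was 2.2 kb and 99261739 to 99261923 was 4.68 kb downstream of it. Another, at 99029552 to 99029813, was 1.38 kb upstream of the start furthest along the gene. No shorter distance between a region and a listed start was found among the 24 forkhead genes with one. The other 15, Foxe1 and Foxo6 among them, have no listed start.

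The promoters at these inner starts of Foxp1 are shown because a region lies within a few kb of each. Both are on the minus strand, and capitals again mark the SOX core.
Foxp1 start furthest along the gene, chr6:99028249-99028548: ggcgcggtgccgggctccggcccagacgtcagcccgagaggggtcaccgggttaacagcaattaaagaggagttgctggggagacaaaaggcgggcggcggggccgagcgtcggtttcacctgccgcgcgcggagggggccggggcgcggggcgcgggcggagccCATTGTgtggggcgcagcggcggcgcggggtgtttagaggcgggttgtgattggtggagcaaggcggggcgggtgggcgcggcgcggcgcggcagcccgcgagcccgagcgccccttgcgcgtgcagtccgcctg
Foxp1 middle start, chr6:99266466-99266765: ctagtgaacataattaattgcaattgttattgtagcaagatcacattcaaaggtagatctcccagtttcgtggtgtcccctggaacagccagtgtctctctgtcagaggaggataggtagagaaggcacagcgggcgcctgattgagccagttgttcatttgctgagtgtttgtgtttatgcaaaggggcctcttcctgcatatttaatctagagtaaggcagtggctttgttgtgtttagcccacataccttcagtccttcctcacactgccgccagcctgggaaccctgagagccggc
The first held 1 match, starting at base 166, and was 75.3% G and C. The middle start held none and was 48.7% G and C. No region overlapped either window, and the gaps from window to region were 1004 and 2055 bp.

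Foxp4, a relative of Foxp1 that acts in lung and heart development, had 6 regions around a span of 57.5 kb (chromosome 17, 47867133 to 47924632). None of the 100 genes nearest in span had as many, and their maximum was 4. Inside the gene, regions lay 3.13, 9.67, 25.9 and 47.3 kb from its start. Another lay 28.8 kb upstream, at 47953346 to 47953582. The sixth lay 48.9 kb beyond the other end, inside Mdfi. The widths were 227 to 320 bp, so all were in the middle of the width range. Per length, Foxp4 held 6.96 regions per 100 kb of span, Foxn3 2.14 and Foxp1 1.34.

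Foxp2, the third FoxP gene on an autosome, had none. This factor of neural circuits for vocal learning spans 541 kb (chromosome 6, 14901349 to 15441977), nearly the length of Foxp1. Its nearest region lay 271 kb away, at 15712958 to 15713145. Of the 100 genes nearest in span, 18 had no region within 50 kb and the median was 2. Foxp1, Foxp4 and Foxp2 thus had 8, 6 and 0 regions, beside medians of 2, 0 and 2 in genes of their lengths.

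**Figure D3:**
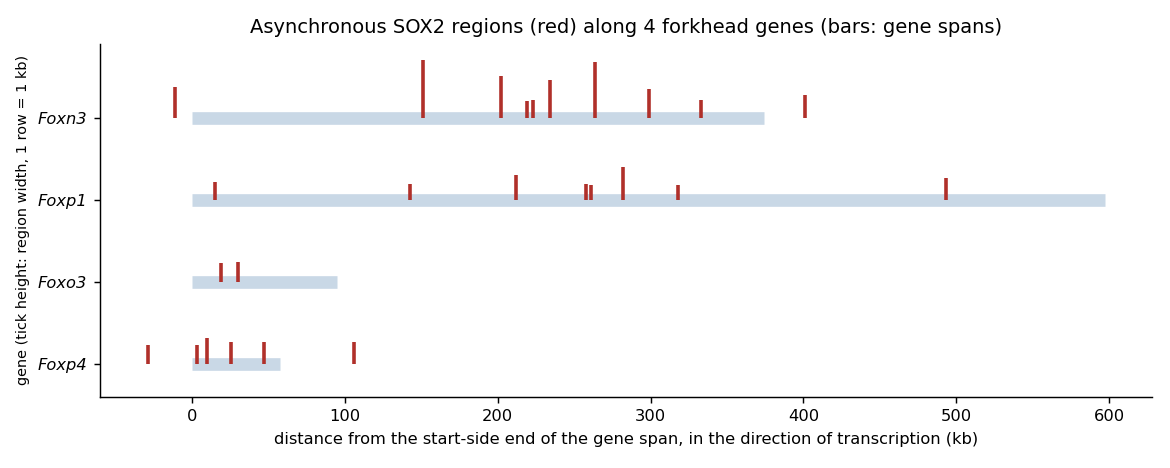
Positions of asynchronous SOX2 regions (red ticks, height in proportion to region width) along Foxn3, Foxp1, Foxo3 and Foxp4 (one row each, pale bars are gene spans). The x axis is the distance in kb from the start-side end of the span, in the direction of transcription. The listed start of Foxn3 lies inside its span, not at that end. The inner regions of Foxn3 begin 151 kb along the span, while those of Foxp4 begin at 3.13 kb and those of Foxp1 spread from 15.2 to 493 kb.

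The FoxO genes of this autosomal set, whose products are held in check by insulin and AKT signalling, each had 2 or 3 regions. Foxo1 had 3, all outside its span (chromosome 3, 52268337 to 52350109): 14.0 kb upstream (52254141 to 52254447), and 33.6 kb (52383567 to 52383785) and 36.4 kb beyond the other end. The last was 461 bp wide (52386286 to 52386746), at percentile 87.2. Of the 100 genes nearest in span, 14 had as many. Foxo3 (chromosome 10, 42181845 to 42276695) had 2, both inside, 19.3 and 30.1 kb from its start, at 42257329 to 42257554 and 42246482 to 42246725. Foxo6, a brain member of the group, had 2 outside its span (chromosome 4, 120267078 to 120287261). The nearer, at 120287916 to 120288306, was 0.850 kb from one end, and the other, at 120252491 to 120252815, was 14.4 kb from the opposite end.

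Genes that act on FoxO factors were counted in the same way. Of 18 genes of insulin, PI3K, AKT and mTOR signalling, of 14-3-3 proteins, which bind phosphorylated FoxO, and Sirt1, a deacetylase that acts on FoxO, 12 had a region (66.7%, exact 95% interval 41.0 to 86.7%). Genes of their lengths had one in 56.9% of cases, inside that interval. Igf1r, a receptor that activates AKT, had 4 regions, and the kinases Sgk1 and Mtor had 3 each. Pik3ca, Irs1, Irs2, Ywhae and Ywhab had none, and neither did Insr, whose nearest region was 50.3 kb away. None of the 18 had a mitotic region.

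The other broadly expressed forkhead genes had 1 or 2 regions each. Foxj3 (chromosome 4, 119539661 to 119629119) had one inside, 53.0 kb from its start (119592490 to 119592864). Another, at 119498358 to 119498790, lay 41.1 kb upstream and was nearer to Rimkla. Foxk1, a repressor of autophagy genes, had 1 inside its span, at chromosome 5, 142440307 to 142440588. The region counted for its partner Foxk2 lay 45.4 kb away, and its nearest gene was Wdr45b, 0.809 kb from it. Foxn2 (chromosome 17, 88440704 to 88490533) had 2. One lay 15.1 kb from the gene (88505492 to 88505739). The other, 20.7 kb away, was 498 bp wide (88511013 to 88511510) and was nearer to Ppp1r21.

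Regions counted for Foxh1, Foxj2 and Foxm1 lay closer to other genes. Both regions of Foxh1 (chromosome 15, 76667829 to 76671614) had the smallest width of the list, 183 bp. One lay 22.4 kb away inside Ppp1r16a (76693933 to 76694115), the other 41.7 kb away and 0.047 kb from Vps28 (76626040 to 76626222). The region counted for Foxm1 was 28.2 kb away inside Tulp3 (chromosome 6, 128334619 to 128334970). That for Foxj2 was 49.7 kb away on the same chromosome (122770297 to 122770730), inside Slc2a3, a glucose transporter gene, and was the one nearest to the limit of 50 kb. When each region was given only to its nearest gene, 14 of the 39 forkhead genes (35.9%) had a region, and 38 of the 49 regions remained. The share in genes of like length was 22.5%. No interval was computed for this setting and the difference was not tested.

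Among lineage-restricted genes, regions lay closest to Foxe1, Foxo6 (described above), Foxd1, Foxi3 and Foxd2. Foxe1, a thyroid factor, had a region of 183 bp inside its span of 2.13 kb, at chromosome 4, 46345500 to 46345682. Foxd1, a factor of the kidney stroma, had one 1.95 kb past its end (chromosome 13, 98358542 to 98358768). Foxi3, which acts in placodes, teeth and hair, had one of 555 bp 3.29 kb past its end (chromosome 6, 70964077 to 70964631), at width percentile 94.9. Foxd2 had one 4.86 kb past its end (chromosome 4, 114901291 to 114901550), and that region was also counted for its neighbour Foxe3, a lens factor, 23.0 kb away.

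Foxa1, the endoderm pioneer factor, had 2 regions further out. One lay 24.4 kb past the gene (chromosome 12, 57516072 to 57516287). The other, of 183 bp, lay 41.9 kb upstream inside Ttc6 (57589788 to 57589970). The region counted for Foxn1, the thymus epithelium factor, was 14.3 kb upstream, inside Slc13a2. That for Foxj1, which switches on motile cilia, was 48.5 kb away, inside Galr2.

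The 18 genes without a region lay a median of 236 kb from the nearest one. Those named here lay from 89.0 kb, at Foxb1, to 578 kb, at Foxd4. Over all autosomal protein-coding genes without a region the median was 138 kb. With genes that had a region included, the order was the other way, with medians of 48.5 kb over the 39 forkhead genes, 56.8 kb over all genes and 61.1 kb over genes of like length. Of the 39 forkhead genes, 28.2% were further than 200 kb from a region, against 17.4% of all genes. At a window of 200 kb, 28 forkhead genes (71.8%, exact 95% interval 55.1 to 85.0%) had a region, against 82.5% of genes of like length. The forkhead share was thus above that of like genes at windows up to 50 kb and below it at 100 and 200 kb. At every window drawn the value for genes of like length lay inside the forkhead interval.

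**Figure D4:**
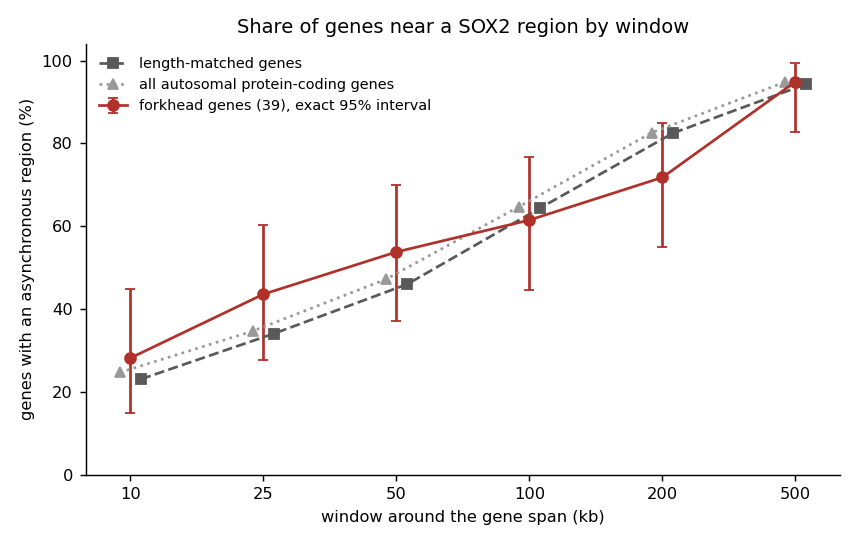
Percentage of genes with an asynchronous SOX2 region (y axis) at windows of 10 to 500 kb around the gene span (x axis), for the 39 forkhead genes with exact 95% intervals, for genes matched on span, and for all autosomal protein-coding genes. The forkhead share rises from 28.2% at 10 kb to 94.9% at 500 kb, and its intervals include both other lines at each window.

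Some forkhead genes lay in long stretches between neighbouring asynchronous regions. Over the autosomes there were 10157 such stretches, with a median of 112 kb. Foxp2 lay in one of 1965 kb with 3 other protein-coding genes, and Foxd4, a neuroectoderm factor, in one of 1254 kb.

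Of the 3 clusters of forkhead genes within 200 kb of each other, Foxd2 and Foxe3 shared a region, and the other two each lay in a stretch without one. Foxq1, Foxf2 and Foxc1, which act in gut and hair, mesenchyme and eye, lie together on chromosome 13 in a stretch of 1770 kb with 8 other protein-coding genes. Foxf1, Foxc2 and Foxl1, of lung, lymphatic and gut mesenchyme, lie on chromosome 8 in one of 748 kb. Their counts of 0 are thus not independent, and with members within 200 kb of each other counted once, 20 of 34 loci had a region (58.8%, exact 95% interval 40.7 to 75.4%). In all, 6 forkhead genes (15.4%, exact 95% interval 5.86 to 30.5%) were in a stretch of over 1000 kb, against 12.4% of all genes and 13.0% of genes of like length. Foxq1, Foxf2 and Foxc1 are among these 6 and share a stretch, so the interval, which treats genes as independent, is too narrow.

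The remaining genes without a region lay 89.0 to 250 kb from one. Foxb1 and Foxi1, of the hypothalamus and of the inner ear and kidney, were 89.0 and 89.7 kb from a region, Foxn4 100 kb and Foxr1 101 kb. Foxs1, Foxl2, the ovary factor, and Foxb2 were 111, 154 and 173 kb away. Foxi2 and Foxa3, a liver factor, were 224 and 250 kb away. No gene lay between 50 and 89.0 kb from a region.

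**Figure D5:**
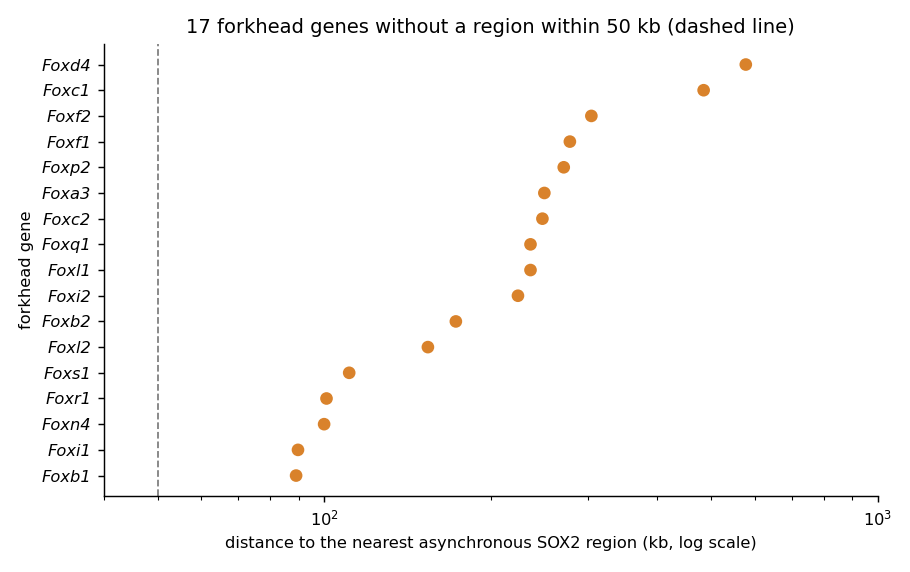
Distance from the gene span to the nearest asynchronous SOX2 region in kb (x axis, log scale) for 17 forkhead genes without a region within 50 kb (dashed line), one gene per row. Distances run from 89.0 kb at Foxb1 to 578 kb at Foxd4.

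In mitotic cells, no forkhead gene had a SOX2 region within 50 kb. With 0 of 39, a share of up to 7.69% is possible at a limit of 3 counts, and of up to 9.03% by the exact interval. The share was 0.886% of all autosomal protein-coding genes and 1.03% of genes of like length, so an absence near the family was not detectable. The nearest mitotic regions lay 234 kb from Foxb1 and 343 kb from Foxo3, followed by Foxl1 at 505 kb, Foxc2 at 517 kb, Foxf1 at 548 kb and Foxi2 at 765 kb. The median was 10077 kb over the family and 9355 kb over all genes. The chromosome of Foxb2 and Foxd4 had no mitotic region. The mitotic list was called at the looser threshold.

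The widths of regions near forkhead genes were close to those of the whole list. Their median was 271 bp (interquartile range 222 to 375 bp), against 289 bp (226 to 382 bp) over all 10176 autosomal regions. The smallest width, 183 bp, was found in 4 of the 49 regions (8.16%), at Foxe1, Foxa1 and Foxh1, and in 4.49% of the autosomal list. Of the 49 regions, 25 lay inside the span of 7 forkhead genes and 24 outside. In the 8 forkhead genes longer than 50 kb, regions inside the span numbered 1.27 per 100 kb, against 0.480 per 100 kb in 4717 other genes of over 50 kb. Foxn3, Foxp1 and Foxp4 held 20 of the 24 regions behind that value, and Foxo1 and Foxp2 held none.

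Promoter sequence was available for 24 of the 39 genes, in 26 windows of 300 bases. No window overlapped a region. The SOX core CATTGT (either strand) was present in 2 of the 26 windows (7.69%), against 10.4% of 20085 promoters of autosomal protein-coding genes. The 2 were the Foxp1 window shown above and that of Foxd4. A forkhead core, TGTTTAC on either strand, was in 1 window, that of Foxa1, against 3.04% of all. The POU octamer, by either strand, was in none, against 1.67% of all. The promoter of Foxd4, on the minus strand, is shown because it carries the SOX core, in capitals from base 89, while the nearest region lay 578 kb away.
Foxd4 promoter, chr19:24900967-24901266: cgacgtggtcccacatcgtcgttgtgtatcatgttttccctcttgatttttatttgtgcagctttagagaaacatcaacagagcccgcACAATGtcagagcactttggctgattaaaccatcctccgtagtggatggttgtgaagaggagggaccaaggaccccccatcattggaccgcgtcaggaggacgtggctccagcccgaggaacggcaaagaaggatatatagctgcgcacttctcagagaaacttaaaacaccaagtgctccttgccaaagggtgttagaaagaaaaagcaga
The 2 windows with the motif thus lay 1004 bp from a region, at Foxp1, and 578 kb from the nearest listed one, at Foxd4. Whether the motif goes with binding was not tested.

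Other families of DNA-binding factors were counted in the same way. Of 12 T-box genes, 6 had a region (50%, exact 95% interval 21.1 to 78.9%), where genes of their lengths had one in 46.2% of cases. Of 18 SOX genes, 11 did (61.1%, 35.7 to 82.7%, against 46.2%), and of 16 KLF genes, 11 did (68.8%, 41.3 to 89.0%, against 47.5%). The highest count was 3 for T-box, 4 for KLF and 11 for SOX genes, beside 10 at Foxn3. The intervals of all 4 families overlap, and the differences were not tested. One KLF gene had a mitotic region within 50 kb, and no T-box or SOX gene did.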

How the data were processed

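The submitters' processing notes name Bowtie2 (2.2.1), MACS2 (version not given in the sources used here) and the build mm10. From the deposited names, the authors pooled replicates, called peaks against input and removed blacklisted regions. A q-value tag in the names is read as 0.01 (asynchronous) and 0.05 (mitotic). The deposited values are region starts and ends (unit: other, in bp); scores, counts and p-values are not among them. Peak numbers run to 15590 in the asynchronous list, and 5239 of them are not in it, so genes without a region are those without a listed one.

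Starts were converted to positions counted from 1, and 181 of 10532 asynchronous entries with repeated coordinates were merged. Gene spans came from RefSeq (GRCm38.p6), and strand and starts from its promoter table. Counting was checked on simulated regions (Python 3.11.15, numpy 2.4.6, pandas 2.3.3). Intervals are Clopper-Pearson at 95% (scipy 1.17.1). Without replicate values no test was run.

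The members, gene lists and expression classes were chosen with earlier results of these data known. Every member is named except 1, which is counted but not reported here. Those with the most regions, the closest regions or the widest ones have coordinates, with the nearest other gene where it was closer. Pairs and stretches singled out within genes were chosen after their values were seen. Alternatives were other windows, any overlap, wider regions, nearest genes, listed starts and 10 length classes. Left out after the data were seen were the smallest regions and genes up to 10 kb, and neighbouring members were counted once.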

Additional observations from a re-analysis of the deposited data

How the results depend on the processing

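Of 43 recomputed values of the main counts and shares, 26 stayed within 1.5 times the count or within the interval and 17 moved. The 26 include the mitotic count, which was 0 in each of these settings. Where a setting only took regions away, that count could not change, so the tally overstates stability. Only the difference between the expression classes could be called reversed by the rule used, and it was not in any setting. The order of the forkhead share and the share of like genes did change. These shares were 53.8 against 46.0% at 50 kb, 61.5 against 64.4% at 100 kb and 71.8 against 82.5% at 200 kb. The count of 21 genes fell to 11 at 10 kb, 12 with regions wider than the median and 13 of 24 genes around listed starts, with fewer regions or genes counted by construction. The 49 regions became 29, 21 and 23 in those settings and 105 at 200 kb. The share of like genes was 23.1, 64.4 and 82.5% at 10, 100 and 200 kb, 27.4% with wider regions, 22.5% by nearest gene and 38.9% around starts. The share of broadly expressed genes exceeded that of restricted ones by 66.7 percentage points at 50 kb. The gap was 31.5 at 10 kb, 40.7 at 200 kb, 51.9 with wider regions and 44.4 by nearest gene. Those classes were chosen with earlier results known and differ in span (medians 59.0 and 3.75 kb). Genes of their lengths had shares of 57.6 and 40.8% at 50 kb. The gaps describe the listed genes and support no difference between the classes. No mitotic region was near a forkhead gene at windows up to 200 kb; at 500 kb, 2 genes had one. Of 193 recomputed values for single genes, other families and FoxO pathway genes, 65 moved. With only regions wider than the median, Foxn3 went from 10 regions to 6, Foxp1 from 8 to 2 and Foxp4 from 6 to 1. Around its listed start Foxn3 had 1. Foxp1 has 3 listed starts, and 4 was the largest number around any 1 of them, not the number around all. At 200 kb Foxp4 had 11. No paired analysis was possible because peaks were called on pooled replicates, and for the same reason no replicate could be left out. Depth is unknown.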

Other observations

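Within 500 kb of the gene, Foxp1 had 18 asynchronous regions, Foxp4 16, Foxn3 14 and Foxk1 and Foxj2 13 each. Foxk1 and Foxj2 therefore had 1 region within 50 kb and 12 further ones beyond. Foxd4 had 0 within 500 kb, and Foxc1 had 1. At that window 94.9% of forkhead genes, 94.3% of genes of like length and 94.8% of all genes had a region. Numbers of regions in genes of like length were not computed at 500 kb, and longer spans search more sequence. These counts therefore cannot be called high or low.

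Peaks missing from the list limit what a count of 0 shows. For 15 of the 18 genes without a region, at least 1 peak number between the flanking listed regions is not in the list. Genes of a cluster share a stretch and its missing numbers, so these 15 are not independent. Over the whole list 5239 of the numbers up to 15590 are missing. The share among other genes without a region was not computed, so no trait of forkhead genes can be read from this. The stretch around Foxd4 lacks 4 numbers and that around Foxp2 lacks 1. No number is missing around Foxb1, Foxb2 and Foxl2. Where the unlisted peaks lie is not known.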
